A study of Mus musculus with 8 samples.

Results

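The Fas and TRAIL death receptor pathway was followed through 8 genes in regulatory T cells (Tregs) at day 2 of differentiation: the ligands Fasl and Tnfsf10 (TRAIL), the receptors Fas and Tnfrsf10b, the adaptor Fadd, the kinase Ripk1, the protease Casp8 and its relative Cflar. They were chosen by gene symbol, and all 8 were found among the 28239 symbols of the count table and passed the filter on low counts. The naïve CD4+ T cells came from the spleens of WT and Alox15-/- mice on a C57BL/6 background, aged 10 to 12 weeks, by immunomagnetic negative selection, and were cultured with IL-2, TGF-β and beads carrying antibodies to CD3 and CD28. Alox15 encodes 15-lipoxygenase, an enzyme that oxygenates polyunsaturated fatty acids, and the labels name no restriction of the deletion to T cells. There were 4 libraries in each group, made by MACE-seq, which counts transcripts near their 3′ ends. The labels give 4 mice for each genotype. The question addressed by the comparison was whether transcripts of the death receptor pathway differed between Tregs of the 2 genotypes.

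Fas and the TRAIL receptor are death receptors of the TNF receptor superfamily. When a ligand clusters the receptor, Fadd binds its death domain and recruits Casp8, which is activated by dimerization and starts a cascade of executioner caspases. Cflar, also called c-FLIP, resembles Casp8 but is not an active protease, and its forms set how far Casp8 is activated. Ripk1 joins these complexes and can lead to NF-κB activation, to apoptosis or, with Ripk3 and Mlkl, to necroptosis when Casp8 is inactive. In T cells, Fas and Fasl are known for the removal of repeatedly stimulated cells.

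The upstream sequences of the ligand Fasl and its receptor Fas are shown because they are the receptor and ligand of 1 pair and were both high in WT replicate 4. RefSeq windows for GRCm38.p6 were matched by symbol for 7 of the 8 genes, Tnfrsf10b being the exception. Each run holds the 250 bases before the RefSeq start, read 5′ to 3′ on the strand of the gene, with motif matches in capitals. The Fasl run lies at chr1:161788496-161788745 on the minus strand, and the Fas run at chr19:34290409-34290658 on the plus strand.

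Fasl: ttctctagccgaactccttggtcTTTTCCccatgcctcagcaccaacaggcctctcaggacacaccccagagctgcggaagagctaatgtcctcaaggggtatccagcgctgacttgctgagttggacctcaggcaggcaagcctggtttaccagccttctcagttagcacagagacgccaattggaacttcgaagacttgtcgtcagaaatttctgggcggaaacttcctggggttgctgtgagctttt

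Fas: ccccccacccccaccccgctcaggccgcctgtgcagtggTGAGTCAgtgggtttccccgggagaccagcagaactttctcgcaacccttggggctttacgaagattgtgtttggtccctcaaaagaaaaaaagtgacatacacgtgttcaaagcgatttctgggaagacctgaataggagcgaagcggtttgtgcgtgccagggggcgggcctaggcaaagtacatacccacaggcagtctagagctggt

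The motifs searched on both strands were GGAAAA, the core bound by NFAT factors, and TGANTCA, the form bound by AP-1 factors, which reads as the same motif on either strand. The capitals in the Fasl run are the reverse complement of GGAAAA, found at -227 to -222 from the start. The capitals in the Fas run are a TGANTCA match at -211 to -205. Of all 32851 RefSeq windows, 20.4% held GGAAAA and 6.75% held TGANTCA in their 250 upstream bases. None of the windows of the other 5 matched genes held either motif. These matches describe the letters only.

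Alox15 was higher in the libraries labelled Alox15-/-, which goes against the label. It stood at 70.5, 69.2, 63.7 and 65.3 CPM (counts scaled to a common library size, with the TMM factors of edgeR) in these libraries, and at 1.88, 2.56, 7.77 and 9.02 CPM in those labelled WT. A 3′ tag outside the disrupted part of a gene checks nothing, and the position of the disruption is not given in the sources used here. The groups are therefore called KO-labelled and WT-labelled, and every direction below rests on these labels. The total count was 3723151 to 6952596 in the KO-labelled libraries and 4810125 to 9538962 in the WT-labelled libraries, so 1 count was worth 0.101 to 0.271 CPM. Of the 12700 genes tested, 158 passed an adjusted p of 0.05, with 133 higher and 25 lower in the KO-labelled libraries. Markers of CD4 T cells summed to 2303 to 2769 CPM in the KO-labelled and 2511 to 2755 CPM in the WT-labelled libraries. Foxp3, Il2ra, Ikzf2 and Ctla4 together summed to 1360 to 1518 and 1370 to 1620 CPM. Foxp3 alone was at 71.7 to 114 and 93.4 to 195 CPM, with overlap. Its log2 fold change was -0.42 (SE 0.20, adjusted p = 0.655, edgeR quasi-likelihood). Cd4 itself was at 209.8 to 297 CPM in the KO-labelled and 328 to 352 CPM in the WT-labelled libraries, without overlap (log2 fold change -0.32, SE 0.11, adjusted p = 0.357, edgeR quasi-likelihood). Markers of other cells differed without overlap: the sums were 905 to 3484 against 32.5 to 122 CPM for erythroid cells, 33.4 to 280 against 4.24 to 9.65 CPM for myeloid cells, 102 to 295 against 26.3 to 46.6 CPM for mast cells and basophils, and 83.9 to 156 against 31.1 to 48.7 CPM for NK and γδ T cells. The sums for B cells were lower, at 5.31 to 7.33 against 7.68 to 18.1 CPM, those for CD8 T cells were 12.1 to 21.9 against 21.5 to 31.8 CPM, and no more than 1 gene of any list was at 0 in any library. In bulk RNA, fewer cells of a type and less RNA per cell cannot be told apart.

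None of the 8 death receptor genes passed the threshold, against 1.24% of all genes tested. In edgeR's quasi-likelihood test 1 of them, Tnfsf10, had an unadjusted p under 0.05, against 7.84% of all genes, and 0 of 8 passed under each of 17 alternative settings, DESeq2 and limma-voom included. Fas and Tnfsf10 had positive log2 fold changes and the other 6 negative ones, with a median of -0.06, and the median over all genes tested was -0.01. None of the 8 separated the groups without overlap, against 5.25% of all genes tested. The plot of counts by library shows the 4 values in each group.

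**Figure D1:**
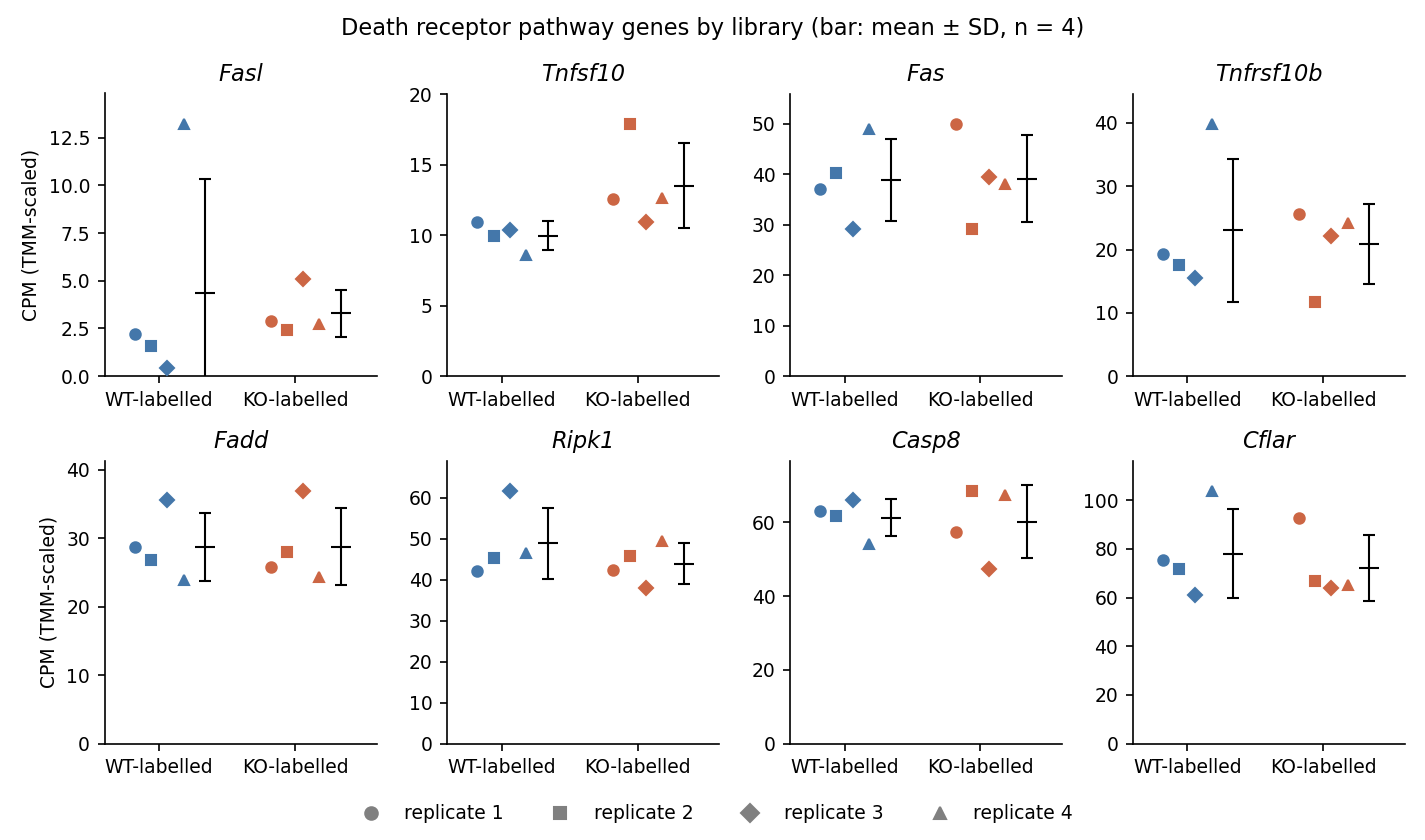
Each panel plots the CPM of 1 gene, scaled by the TMM method, in the 4 WT-labelled (blue) and 4 KO-labelled (orange) libraries, with symbols for the replicate number and the mean ± SD beside them, the lower end of the WT bar for Fasl being cut at 0. The groups overlapped for all 8 genes, and WT replicate 4 was the highest library for Fasl, Tnfrsf10b and Cflar.

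Fasl, the ligand of Fas, is transcribed from chr1:161780689-161788495 on the minus strand. It was sparsely counted, with 2.90, 2.44, 5.11 and 2.73 CPM in KO-labelled replicates 1 to 4 from 12, 9, 27 and 19 counts. The WT-labelled replicates 1 to 4 held 2.20, 1.602, 0.403 and 13.2 CPM from 14, 10, 4 and 63 counts. WT replicate 4 was above every other library, while the other 3 WT libraries were below all KO-labelled libraries. The means were 3.29 ± 1.22 and 4.36 ± 5.96 CPM (SD, n = 4), and the log2 fold change was -0.23 (SE 0.71, adjusted p = 0.967 in edgeR's quasi-likelihood test). The 95% interval of the fold ran from 0.299 to 2.45, and a difference of 2-fold in either direction was not detectable at this spread between libraries. Without WT replicate 4 the log2 fold change of Fasl was 1.35 (unadjusted p under 0.05, adjusted p = 0.305 in the same edgeR test), with limma-voom it was 0.90, and neither passed the threshold.

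Tnfsf10 encodes TRAIL, a ligand whose transcription is known to respond to interferon, and lies at chr3:27317028-27342427 on the plus strand. Its KO-labelled values were 12.6, 17.9, 10.97 and 12.7 CPM, from 52 to 88 counts. In the WT-labelled libraries they were 10.98, 9.93, 10.4 and 8.60 CPM, from 41 to 103 counts. The groups met at their edges, since KO-labelled replicate 3 (10.969 CPM) lay just under WT replicate 1 (10.975 CPM). The means of 13.5 ± 3.03 and 9.97 ± 1.01 CPM (SD, n = 4) gave a log2 fold change of 0.42 (SE 0.18, unadjusted p under 0.05), which did not pass the adjustment over all genes (adjusted p = 0.608, edgeR quasi-likelihood). This is a fold of 1.33, with a 95% interval of 1.02 to 1.75. KO-labelled replicate 2 was the highest library for Tnfsf10. It was also the highest for the summed markers of myeloid cells, of mast cells and basophils, and of the NK and γδ T cell list. KO-labelled replicate 3, the lowest of its group for Tnfsf10, had a myeloid sum of 169 CPM, against 56.2 and 33.4 CPM in replicates 1 and 4. WT replicate 4 had the least Tnfsf10 (8.60 CPM). Its sums were the highest of the WT-labelled libraries for myeloid cells (9.65 CPM) and for mast cells and basophils (46.6 CPM). The part of these cells in the Tnfsf10 value was not tested. With KO-labelled replicates 2 and 3 left out together, or under any other alternative, the log2 fold change stayed between 0.27 and 0.51. Its unadjusted p was under 0.05 in 8 of the 17 alternatives, and not without KO-labelled replicate 2, with the Wald test of DESeq2 or with limma-voom.

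Fas, the receptor of Fasl, lies at chr19:34290666-34327772 on the plus strand. It was measured at 50.0, 29.0, 39.5 and 38.0 CPM in the KO-labelled libraries and at 37.0, 40.2, 29.2 and 48.9 CPM in the WT-labelled libraries. Each group thus held 1 library near 50 and 1 near 29 CPM, and the groups covered the same range. The means, 39.1 ± 8.58 and 38.8 ± 8.17 CPM (SD, n = 4), differed by a log2 fold change of 0.02 (SE 0.17, adjusted p = 0.988, edgeR quasi-likelihood). The 95% interval of the fold was 0.789 to 1.31.

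Tnfrsf10b, the mouse receptor of TRAIL that carries a death domain, lies at chr14:69767472-69784411 on the plus strand. KO-labelled libraries held 25.6, 11.7, 22.1 and 24.2 CPM, and WT-labelled libraries 19.3, 17.6, 15.5 and 39.9 CPM. The lowest value was KO-labelled replicate 2 and the highest WT replicate 4, so each group contained 1 library away from its other 3. The log2 fold change was -0.10 (SE 0.28, adjusted p = 0.966, edgeR quasi-likelihood), with a fold interval of 0.616 to 1.41 at 95%. It was 0.28 without WT replicate 4 and 0.08 without KO-labelled replicate 2, so the direction turned on either library. The receptors Tnfrsf22 and Tnfrsf23, which bind TRAIL without a death domain, had log2 fold changes of 0.05 (SE 0.17) and 0.06 (SE 0.38), with adjusted p-values of 0.971 and 0.988 in the same edgeR test.

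The adaptor Fadd, at chr7:144577318-144582463 on the minus strand, links the receptors to Casp8. It was counted at 25.8, 28.0, 36.9 and 24.3 CPM in the KO-labelled libraries and at 28.7, 26.9, 35.6 and 23.9 CPM in the WT-labelled libraries. The group means of 28.7 ± 5.62 and 28.8 ± 4.96 CPM (SD, n = 4) were the closest among the 8 genes, with a log2 fold change of -0.01 (SE 0.16, adjusted p = 0.995, edgeR quasi-likelihood). The antisense gene Faddos covers the 3′ end of Fadd in GENCODE M21 but held at most 9 counts in any library. Whether the counting used the strand is not stated.

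Ripk1, at chr13:34002363-34037147 on the plus strand, held 42.2, 45.9, 38.0 and 49.5 CPM in the KO-labelled libraries. Its WT-labelled values were 42.0, 45.3, 61.5 and 46.4 CPM, of which only that of replicate 3 lay above all KO-labelled libraries. The log2 fold change was -0.16 (SE 0.14, adjusted p = 0.842, edgeR quasi-likelihood), and the 95% interval of the fold was 0.733 to 1.10. Its sign was negative under all 17 alternatives, between -0.22 and -0.01, and it passed the threshold in none.

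Casp8 and Cflar are neighbours on the plus strand of chromosome 1, at chr1:58795374-58847503 and chr1:58711508-58758884, with 36489 bp between the end of Cflar and the start of Casp8. Casp8 was measured at 57.5, 68.4, 47.5 and 67.5 CPM in the KO-labelled libraries and at 63.0, 61.7, 66.0 and 54.1 CPM in the WT-labelled libraries. The WT-labelled values lay within the KO-labelled range, and the log2 fold change of -0.03 (SE 0.13, adjusted p = 0.977, edgeR quasi-likelihood) carried a 95% fold interval of 0.815 to 1.18. Cflar was measured at 92.7, 66.8, 64.1 and 65.3 CPM in the KO-labelled libraries and at 75.6, 71.9, 61.2 and 104 CPM in the WT-labelled libraries. KO-labelled replicate 1 and WT replicate 4 stood above all other libraries, and the log2 fold change of Cflar was -0.11 (SE 0.16, adjusted p = 0.914, edgeR quasi-likelihood; 0.06 without WT replicate 4). 

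The ratio of the inhibitor to the protease was compared within libraries, since it sets 2 genes that act on the same complex against each other in the same RNA. The log2 ratio of Cflar to Casp8 was 0.69, -0.03, 0.43 and -0.05 in the KO-labelled libraries and 0.26, 0.22, -0.11 and 0.93 in the WT-labelled libraries. The spread within each group was wider than the difference between the means of 0.26 ± 0.36 and 0.33 ± 0.44 (SD, n = 4; two-sided exact permutation p = 0.80, also 0.80 adjusted over the 2 ratios). The log2 ratio of Fas to Cflar was -0.89 ± 0.22 against -0.9995 ± 0.11 (SD, n = 4; exact permutation p = 0.371, adjusted p = 0.743). The smallest p that 4 against 4 libraries allow is 0.0286. Because 3′ tags are not scaled for length and differ in efficiency between genes, the ratios are compared between groups and not read as levels.

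**Figure D2:**
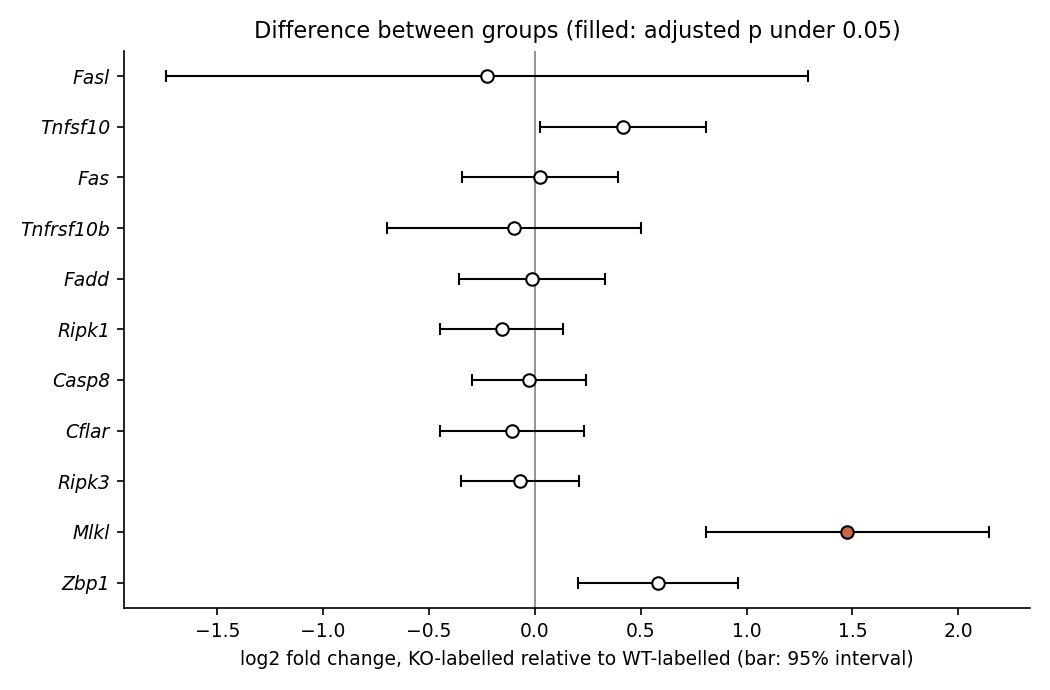
The plot shows the log2 fold change of the KO-labelled relative to the WT-labelled libraries for the 8 death receptor genes and 3 necroptosis genes, with bars for the 95% interval. Of the 11 genes, the filled point of Mlkl (1.48) was past an adjusted p of 0.05, and the intervals of all 8 death receptor genes except Tnfsf10 crossed 0.

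For all 8 genes, the range within at least 1 group was wider than the difference between the group means. Relative to the mean over the 8 libraries, WT replicate 4 was higher by 2.15 for Fasl, 0.93 for Tnfrsf10b, 0.49 for Cflar and 0.35 for Fas on the log2 scale. KO-labelled replicate 2 was lower by a deviation of -0.81 for Tnfrsf10b and -0.40 for Fas. The cytokine Tnf and the NF-κB feedback inhibitor Tnfaip3 deviated in the same libraries, Tnf by 1.497 and Tnfaip3 by 1.19 in WT replicate 4, and by -0.76 and -0.62 in KO-labelled replicate 2. In CPM, Tnf was at 136 and Tnfaip3 at 104 in WT replicate 4, against 28.2 to 61.6 and 29.6 to 58.7 in the other 7 libraries. Fadd, Casp8 and Tnfsf10 were below their means in WT replicate 4, by deviations of -0.25, -0.15 and -0.40, and Ripk1 was near its mean.

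**Figure D3:**
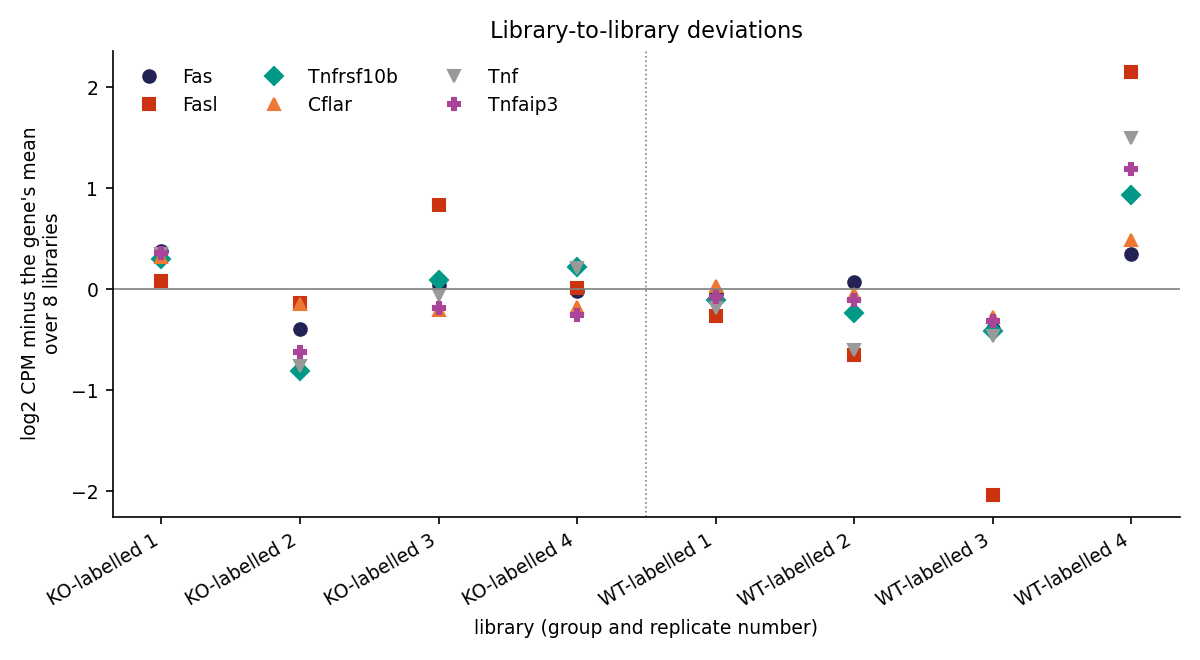
Points give log2 CPM minus the mean of the same gene over the 8 libraries, for Fas, Fasl, Tnfrsf10b, Cflar, Tnf and Tnfaip3, with libraries named by label and replicate number. All 6 genes were above their mean in WT replicate 4 and in KO-labelled replicate 1, and all 6 were below it in KO-labelled replicate 2 and WT replicate 3.

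Across the 8 libraries Fas and Tnfrsf10b had a Pearson r of 0.86 in log2 CPM, and Fas and Cflar of 0.81. Without WT replicate 4 these values were 0.85 and 0.76, whereas those of Fasl with Tnfrsf10b and with Cflar went from 0.74 and 0.66 to 0.45 and 0.28. The other pairs had either sign, with Fas and Fasl at 0.68, Casp8 and Ripk1 at 0.63 and Fadd and Cflar at -0.64 over the 8 libraries, and that of Fasl and Ripk1 went from -0.59 to -0.89 without WT replicate 4. The points share their library and its depth, and no p is given. The genes whose pattern was most like that of Fas were Tnfsf4 (r = 0.955), Samsn1 (0.952) and Gm13710 (0.950). The same ranking gave Crip2 (0.973), Ppfibp1 (0.964) and AC163637.2 (0.959) for Fasl, and Spata24 (0.985), Mrps36-ps1 (0.963) and Gm20671 (0.963) for Tnfsf10. Each ranking was taken over the 12700 tested genes.

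Beyond the 8 genes, 53 other genes of the pathway were listed by role, and 47 passed the filter. Of these 27 were higher and 20 lower in the KO-labelled libraries, with a median log2 fold change of 0.04, and 1 of 47 rose past the threshold, against 1.24% of all genes called in either direction. An unadjusted p under 0.05 was found for 5 of 47, namely Mlkl, Zbp1, Dedd2, Lta and Bak1, of which Zbp1 and Lta are named after their values were seen, against 7.84% of all genes. Both counts are near the background share.

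The gene that rose was Mlkl, the pseudokinase that breaks the plasma membrane in necroptosis, at chr8:111311797-111338177 on the minus strand. It was at 7.72, 12.8, 8.13 and 5.04 CPM in the KO-labelled libraries and at 3.29, 4.00, 2.52 and 1.89 CPM in the WT-labelled libraries. All 4 KO-labelled values were above all 4 WT-labelled values, with a log2 fold change of 1.48 (SE 0.31, adjusted p = 0.0265, edgeR quasi-likelihood; fold 2.78, interval 1.75 to 4.42). Mlkl did not pass with limma-voom (adjusted p = 0.0515) or without any 1 of KO-labelled replicates 1, 2 and 3 or WT replicates 1 and 3 (0.0698, 0.109, 0.0938, 0.0792 and 0.0863 in edgeR's quasi-likelihood test). Its log2 fold change was 1.39 with limma-voom and 1.505, 1.22, 1.49, 1.53 and 1.39 in these leave-outs. Among the KO-labelled libraries, replicate 2 was the highest for Mlkl and replicate 4 the lowest. The same held for the summed markers of myeloid cells (280 and 33.4 CPM) and of mast cells and basophils (295 and 102 CPM). It also held for the NK and γδ T cell list (156 and 83.9 CPM), which was mostly γδ T cell genes. Among the WT-labelled libraries, replicate 4 had the least Mlkl but the highest myeloid sum (9.65 CPM). The part of these cells in the value was not tested. With KO-labelled replicates 2 and 3 left out, the log2 fold change was 1.08 (adjusted p = 0.497 in edgeR's quasi-likelihood test).

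Ripk3, the kinase that phosphorylates Mlkl, was at 31.0 to 40.2 CPM in the KO-labelled and 30.01 to 40.7 CPM in the WT-labelled libraries, with a log2 fold change of -0.07 (SE 0.13, adjusted p = 0.934, edgeR quasi-likelihood). Zbp1, a nucleic acid sensor that binds Ripk3, was at 31.6, 47.2, 34.4 and 29.8 CPM against 25.6, 26.7, 25.7 and 16.2 CPM. Its groups did not overlap, yet the log2 fold change of 0.58 (SE 0.18, unadjusted p under 0.05) did not pass the adjustment in edgeR's test (adjusted p = 0.240). Among the KO-labelled libraries, replicate 2 was the highest and replicate 4 the lowest for Zbp1, as for the marker sums given with Mlkl. WT replicate 4 had the least Zbp1 of all libraries (16.2 CPM). Its sums were the highest of the WT-labelled libraries for myeloid cells (9.65 CPM) and for mast cells and basophils (46.6 CPM). The part of these cells in the Zbp1 value was not tested. With KO-labelled replicates 2 and 3 left out, the log2 fold change of Zbp1 was 0.37 (adjusted p = 0.879 in edgeR's quasi-likelihood test). Mlkl and Zbp1 were the 2 of 47 genes without overlap, against 5.25% of all genes tested.

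**Figure D4:**
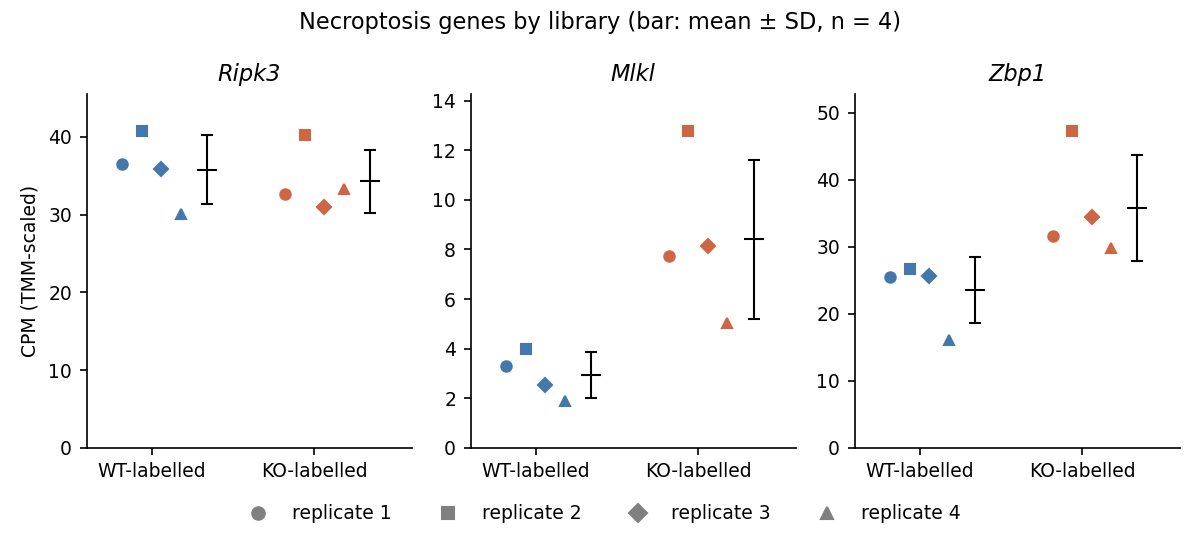
CPM of Ripk3, Mlkl and Zbp1 are plotted for the 4 WT-labelled (blue) and 4 KO-labelled (orange) libraries, with the mean ± SD. The groups overlapped for Ripk3 and were apart for Mlkl and Zbp1, and KO-labelled replicate 2 was the highest library for both of these.

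The remaining lists held no gene past the threshold. Of 5 tested ligands and receptors of related pathways, 2 were higher and 3 lower, from Tnf at -0.32 (SE 0.38) to Tnfrsf21, also called death receptor 6, at 0.68 (SE 0.43) on the log2 fold scale. The direction of Tnf turned without WT replicate 4, where it was at 0.42. Lta, lymphotoxin alpha, was among the lower ones at -0.24 (SE 0.10, adjusted p = 0.603, edgeR quasi-likelihood). Of 12 adaptors and ubiquitin enzymes of complex I, the assembly that forms on TNF receptor 1, 7 were higher and 5 lower, between Tnfaip3 at -0.42 (SE 0.29) and the deubiquitinase Cyld at 0.16 (SE 0.13). Tnfaip3 was at 0.04 without WT replicate 4. Of 9 caspases and substrates, 3 were higher and 6 lower, the lowest being Casp6 at -0.31 (SE 0.20). Of 7 genes of the mitochondrial step, 4 were higher and 3 lower, between the pore former Bax at -0.04 (SE 0.14) and its relative Bak1 at 0.25 (SE 0.12, adjusted p = 0.617, edgeR quasi-likelihood). Of 9 modulators of Fas and its signaling complex, 7 were higher and 2 lower, between Fcmr at -0.14 (SE 0.19) and Dedd2, a death effector domain protein, at 0.39 (SE 0.16, adjusted p = 0.526, edgeR quasi-likelihood).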

How the data were processed

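MACE-seq libraries of Tregs from 4 WT and 4 Alox15-/- mice were analysed from the raw counts per gene symbol that the authors deposited, without normalization. The submitters' processing notes name Bowtie, edgeR and GRCm38; strand and duplicate removal are not given in the sources used here. The methods name the MACE-Seq Kit and the labels a small RNA kit. A gene was tested where 4 or more libraries reached 2 CPM, which held for 12700 of 28239 symbols, with TMM scaling and the quasi-likelihood test of edgeR 4.0.16 in R 4.3.3, with group as the only term and Benjamini–Hochberg adjustment over all tested genes at 0.05. The standard error was the log2 fold change divided by the square root of F. Log2 CPM used a prior count of 2. Total counts were 3723151 to 9538962, and the biological coefficient of variation was 14.5%, so low counts such as those of Fasl carry counting error as well.

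The 8 genes and all lists were chosen with earlier results of these data known. Named were the 8 genes, Alox15, every other pathway gene past the threshold, the highest and lowest log2 fold change in each list, and the 3 genes most like Fas, Fasl and Tnfsf10; 1 gene that the rule names is not reported here. Replicate numbers were not taken to pair the libraries. Alternatives were other scalings and filters, DESeq2 1.42.0, limma-voom (limma 3.58.1), robust fitting, the replicate number as a block and each library left out. The alternatives for Mlkl, Zbp1, Tnf and Tnfaip3, and leaving out KO-labelled replicates 2 and 3 together, were added after seeing the data. Of the tests used, only the quasi-likelihood test of edgeR was tried on simulated counts, which held no outlying library. Positions came from GENCODE M21 (GRCm38) and upstream windows from RefSeq (GRCm38.p6), read with Python 3.11.15 and pandas 2.3.3; figures used matplotlib 3.10.9.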

Additional observations from a re-analysis of the deposited data

Results flagged for a closer look

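For the 8 death receptor genes and the other 47 tested pathway genes, the gap between the most extreme library and its nearest neighbour was set against the range of its group. It exceeded Dixon's 95% critical value in 14 of 110 groups of 4, and chance flags about 1 in 20 groups. WT replicate 4 was the extreme library in 7 of the 14. It was highest for Fasl (13.2 CPM), Tnfrsf10b (39.9 CPM), Tnf (136 CPM), Tnfaip3 (104 CPM), Faim (34.8 CPM) and Bid (20.99 CPM), and lowest for Zbp1 (16.2 CPM). Over all tested genes the same library was the outlying highest in 1.65% and the outlying lowest in 0.693%. In WT replicate 3, Casp8ap2 was highest at 34.3 CPM.

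Among the KO-labelled libraries, replicate 1 was the outlying highest for Cflar (92.7 CPM) and replicate 3 for Fasl (5.11 CPM). The outlying lowest values were those of Dffa in replicate 2 (22.0 CPM), Tnfrsf1a and Apaf1 in replicate 3 (15.9 and 27.0 CPM), and Bak1 in replicate 4 (44.9 CPM).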

How the results depend on the processing

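None of the 8 death receptor genes passed the threshold under any of the 17 alternatives, and Tnfsf10 (0.27 to 0.51) and Ripk1 kept their direction in all of them. The median of the 8 was -0.12 to 0.11 with 1 library left out, positive without WT replicate 4, and 0.03 without KO-labelled replicates 2 and 3. Several fold changes changed sign, and the cause was not tested. With 1 library left out, log2 fold changes ran from -0.11 to 0.15 for Fas, -0.68 to 1.35 for Fasl, -0.25 to 0.28 for Tnfrsf10b, -0.15 to 0.12 for Fadd, -0.0910 to 0.0781 for Casp8 and -0.25 to 0.0568 for Cflar, -0.53 to 0.42 for Tnf and -0.62 to 0.0390 for Tnfaip3, and the log2 ratio of Cflar to Casp8 differed by -0.21 to 0.13. Limma-voom gave 0.90 for Fasl and 0.0171 for Tnfrsf10b. Upper quartile factors gave 0.0157 for Fadd and 0.0015 for Casp8. Without KO-labelled replicates 2 and 3, Tnfrsf10b was at 0.14, Casp8 at 0.0334 and Cflar at 0.0181. Genes past the threshold numbered 388 with no filter, 86 to 172 with 1 library left out and 60 without KO-labelled replicates 2 and 3, against 158. Of the other pathway genes 2 passed with no filter (Mlkl and Zbp1, adjusted p = 0.0244 for Zbp1 in edgeR), 0 with limma-voom, 0 to 1 with 1 library left out and 0 without KO-labelled replicates 2 and 3, where their median was 0.00048. Mlkl passed in 10 of 17 alternatives.

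Deviations of same-numbered libraries correlated at -0.18 to 0.17, and 1 of 4 KO-labelled libraries correlated best with its own number, so the numbers were not taken to pair the libraries. With the replicate block 146 genes passed, 0 of them among the 8, and Fasl was at 0.16. Fasl held 4 to 63 counts a library. The p-values measure only the spread between these libraries, which edgeR estimates for each gene with the help of all tested genes.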
